A study of Mus musculus with 2 samples.

Results

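The miR-130 and miR-301 family was described across the microRNA (miRNA) genes counted in the hindbrain of newborn mice. Its members are 4 miRNA genes, Mir130a, Mir130b, Mir301 and Mir301b, of the 1973 genes in the tables. They were chosen by gene name with their levels in these same libraries already known, on the own-strand counts in both tables, so every level below is a description and carries no test. Mir301 is the gene also written Mir301a. The data were microRNA-seq libraries of total RNA, size-selected below 30 nucleotides, from single hindbrains of 2 pups of strain B6NCrl at postnatal day 0. The labels call them pup 1 (replicate 1) and pup 3 (replicate 2), give 1 donor identifier for both, and mark the sex as not collected. No treatment or mutant allele is given for either pup, and the 2 libraries make up a single group without a second condition.

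A miRNA is cut as a short duplex from the stem of a hairpin precursor, and one or both of its arms (5p and 3p) are loaded into Argonaute, where bases 2 to 8, the seed, pair with target mRNAs and lower their stability and translation. Members of a family share the seed and so can share targets. The miR-130 and miR-301 family is known from work on blood vessel cells, blood formation, lung vessels and tumours. Loss of Dicer, the enzyme that cuts hairpins into mature miRNAs, disturbs brain development in mice, and a whole hindbrain holds progenitors, neurons, glia, vessels and blood.

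The mature 3p arms in RefSeq (build GRCm38.p6) are printed 5′ to 3′ with the seed in capitals, because the shared seed is what makes the genes one family. RefSeq lists the 3p arm for 3 of the 4 genes, and for Mir301b the whole hairpin is given, with the 7 seed letters in capitals.
miR-130a-3p: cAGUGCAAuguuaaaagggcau
miR-130b-3p: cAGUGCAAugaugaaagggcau
miR-301a-3p: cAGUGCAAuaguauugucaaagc
Mir301b hairpin: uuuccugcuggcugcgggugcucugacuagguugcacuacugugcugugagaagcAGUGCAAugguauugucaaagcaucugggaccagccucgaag

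The letters behind the seed split the family into a miR-130 pair and a miR-301 pair. With positions counted from 1 at the 5′ end of the arm, miR-130a-3p and miR-130b-3p had the same base at 20 of 22 positions and differed by U11A and A13G. The miR-301a-3p sequence and the matching stretch of the Mir301b hairpin had the same base at 22 of 23 positions and differed by A10G. Between the pairs, 11 to 13 of 22 positions were the same.

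The 5p arms, the other side of each hairpin stem, are shown because their seeds do not unite the family.
miR-130a-5p: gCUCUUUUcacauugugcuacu
miR-130b-5p: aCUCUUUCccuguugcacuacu
miR-301a-5p: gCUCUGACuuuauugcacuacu
miR-301b-5p: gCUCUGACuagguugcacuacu
The 2 miR-301 5p arms shared the seed CUCUGAC, and the miR-130 5p arms had the seeds CUCUUUU and CUCUUUC. The tables count reads per gene and do not separate the arms, so each level below holds both arms of its gene.

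The members lie at 3 places in the genome (coordinates on mm10, GENCODE M21). The minus strand of chromosome 2 holds Mir130a (ENSMUSG00000065484.1), from 84741115 to 84741178. No annotated gene contains it on that strand, and its nearest annotated neighbours are Gm19426, 990 bases away, and Ypel4, 2459 bases away on the other strand. The plus strand of chromosome 11 holds Mir301 (ENSMUSG00000065589.1), from 87113004 to 87113089, within an intron of Ska2, which encodes a subunit of the complex that holds kinetochores to spindle microtubules. The minus strand of chromosome 16 holds Mir130b (ENSMUSG00000065572.1), from 17124061 to 17124142, and Mir301b (ENSMUSG00000076288.1), from 17124400 to 17124496, both within an intron of the protein-coding gene 2610318N02Rik. Only 257 bases separate those hairpins.

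The tables set reads with more than 1 matching place apart from the genes, so shared sequence can lower a count. The longest run of letters that a member's hairpin shared with any other of the 1005 mouse hairpins in RefSeq was 17 bases for Mir130a (with Mir6389) and 16 bases for Mir130b (with Mir6368). It was also 16 bases for Mir301 and Mir301b, which share it with each other. Which reads the authors' aligner placed uniquely was not tested.

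Mir130a carried most of the family's reads. It had 143236 own-strand counts in pup 1 and 174331 in pup 3. Its level was 29195 CPM in pup 1 (exact Clopper-Pearson 95% interval 29047 to 29345) and 27944 CPM in pup 3 (27814 to 28073), where CPM is the gene's reads on its own strand per 1000000 such reads of all genes in the library. These intervals, like those below, cover counting error only and take each read as a separate molecule. The mean was 28569.5 ± 885 CPM (SD, n = 2), and Mir130a stood in place 7 of all genes in both pups. The range of Mir130a over the 2 pups overlapped those of 2 other genes, while 5 genes lay wholly above it. Genes with identical copies lose reads that match several places, so these places, and the shares below, describe the counts and not the mature miRNAs.

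Mir130b came next in the family, at 3332 CPM in pup 1 (95% interval 3281 to 3384) and 3226 CPM in pup 3 (3182 to 3271), from 16348 and 20126 counts. Its mean of 3279 ± 75.1 CPM (SD, n = 2) put it in place 64 in pup 1 and 62 in pup 3. On library totals, both pups thus gave nearly the same level.

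Mir301 had 2246 CPM in pup 1 (95% interval 2205 to 2289) and 1863 CPM in pup 3 (1829 to 1897), from 11021 and 11622 counts. The mean was 2055 ± 271 CPM (SD, n = 2), in places 80 and 83. Its standard deviation was 13.2% of the mean, against 3.10% for Mir130a, 2.29% for Mir130b and 9.47% for Mir301b. These spreads are on library totals, and their order changes with the scaling between libraries, as given below.

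Mir301b was the lowest member, at 118 CPM in pup 1 (95% interval 109 to 128) and 103 CPM in pup 3 (95.6 to 112), from 580 and 645 counts. The mean was 111 ± 10.5 CPM (SD, n = 2), in places 234 and 227. The order Mir130a, Mir130b, Mir301, Mir301b held in both pups, and no member's range over the pups overlapped another's. How well each small RNA is ligated and amplified depends on its sequence, and that part of the gap between genes was not tested.

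**Figure D1:**
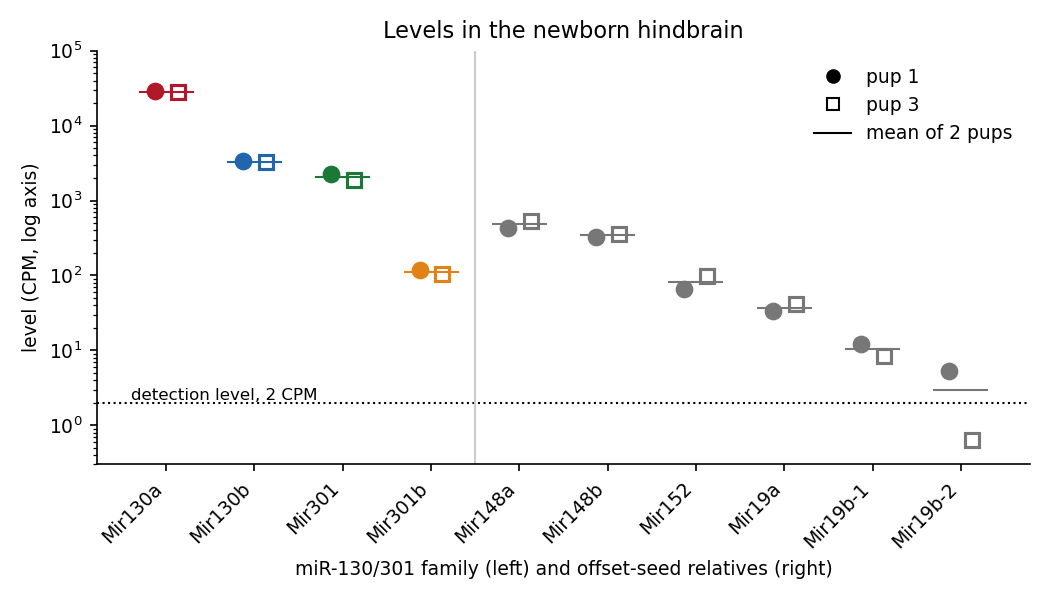
Own-strand level in CPM (log axis) of the 4 family members and of 6 relatives whose seed is shifted by a base, in pup 1 (filled circles) and pup 3 (open squares), with the mean as a line. The members run from 28569.5 CPM for Mir130a to 111 CPM for Mir301b, and the pups differ far less than the members do.

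All 4 members reached 2 CPM in both pups, the level used for detection, which 20.6% of the 1973 genes reached. Mir130a, Mir130b and Mir301 also reached 1000 CPM in both pups, as 4.92% of all genes did. As the members were proposed with these levels known, nothing is read from either share. Together they held 171185 own-strand counts in pup 1 and 206724 in pup 3, which were 3.49% (95% interval 3.47 to 3.51) and 3.31% (3.30 to 3.33) of the gene counts. The mean was 3.40% ± 0.124 (SD, n = 2), and 0.544% ± 0.0357 without Mir130a.

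**Figure D2:**
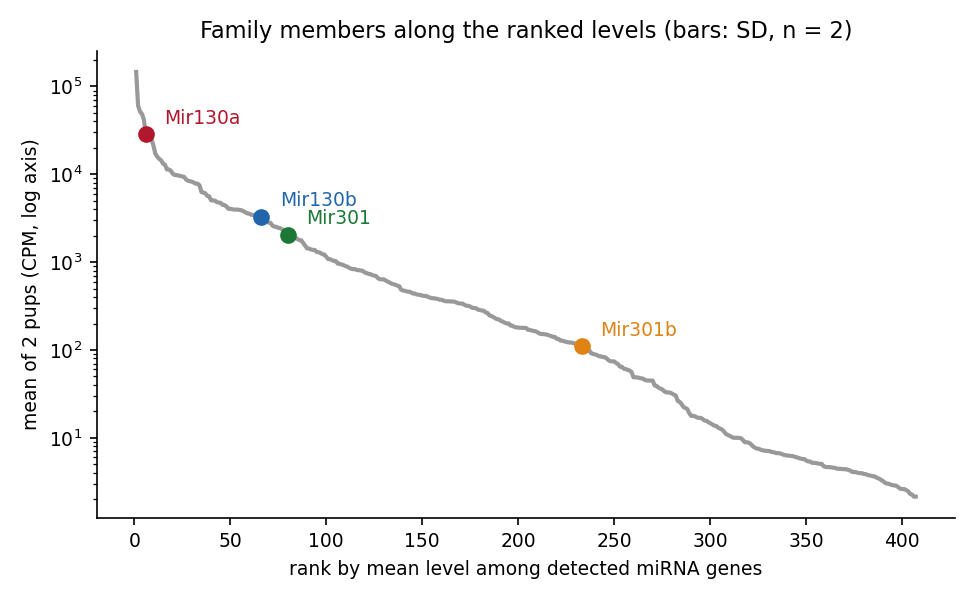
Mean level of the 2 pups in CPM (log axis) of the 407 detected genes, in order of level (grey line), with the 4 members as points and their SD (n = 2) as bars, which are mostly smaller than the points. Mir130a lies in the steep top of the curve, Mir130b and Mir301 close together below it, and Mir301b past the middle.

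Within the family, the share of each genomic place was close in both pups. The chromosome 2 gene Mir130a made up 83.7% of family counts in pup 1 and 84.3% in pup 3. The chromosome 16 pair made up 9.89% in pup 1 and 10.05% in pup 3, nearly all of it Mir130b. The Ska2 intron gene Mir301 made up 6.44% in pup 1 and 5.62% in pup 3, and was the one place whose share was lower in pup 3.

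Ratios between members within a library do not depend on how the libraries are scaled to each other. Mir130a had 8.76 times the counts of Mir130b in pup 1 (95% interval 8.62 to 8.91) and 8.66 times in pup 3 (8.54 to 8.79), and these intervals overlapped. Mir130b had 1.48 times the counts of Mir301 in pup 1 (1.45 to 1.52) and 1.73 times in pup 3 (1.69 to 1.77), and these did not. Mir130a likewise had 13.0 times the counts of Mir301 in pup 1 (12.7 to 13.3) and 15.0 times in pup 3 (14.7 to 15.3). Mir301 against Mir301b gave 19.0 (17.5 to 20.7) in pup 1 and 18.0 (16.6 to 19.5) in pup 3, with overlapping intervals. Mir130a and Mir130b thus kept 1 proportion in both pups within counting error, and Mir301 was lower against both in pup 3. Over 508 genes the 2 libraries differed beyond counting error, with a chi-square per gene of 391. Intervals that do not overlap thus do not set Mir301 apart, and changes of such ratios were not compared with those of other genes. With 1 library per pup, a difference between animals cannot be told apart from one between preparations.

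On library totals, Mir130a and Mir130b differed between the pups by less than most detected genes, and Mir301 by about as much as the median gene. The log2 difference, pup 1 over pup 3 with 1 CPM added to each level, was 0.063 for Mir130a (counting SE 0.0051), 0.047 for Mir130b (SE 0.015), 0.27 for Mir301 (SE 0.019) and 0.19 for Mir301b (SE 0.083). The median absolute difference of the 407 detected genes was 0.28. Of these genes, 87.5% differed by more than Mir130a, 90.7% by more than Mir130b, 51.1% by more than Mir301 and 65.4% by more than Mir301b. The detected genes reach down to 2 CPM, where counting error is larger than for the members, and genes of like level were not compared separately. None of the 4 members was 2-fold apart. Of the detected genes 7.13% were, 29 in all, of which 28 were higher in pup 1 and 1 was lower. With 4 members and so low a share, nothing is read from the lack of a 2-fold difference among them.

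The sign of these differences, and which member differs most, depend on the scaling. The detected genes as a whole had a median log2 difference of 0.14 on library totals and of 0.0078 with TMM, edgeR's trimmed mean scaling, which moved every gene by -0.13. With TMM, Mir130a stood at -0.072, Mir130b at -0.088, Mir301 at 0.14 and Mir301b at 0.057. With DESeq2 size factors, which moved every gene by -0.23, Mir301 alone of the 4 stayed above 0, at 0.041. Mir301b stood at -0.037, Mir130a at -0.17 and Mir130b at -0.18, so Mir130a and Mir130b then differed most between the pups. No direction between the pups is given for Mir130a, Mir130b or Mir301b, since their signs change with the scaling.

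**Figure D3:**
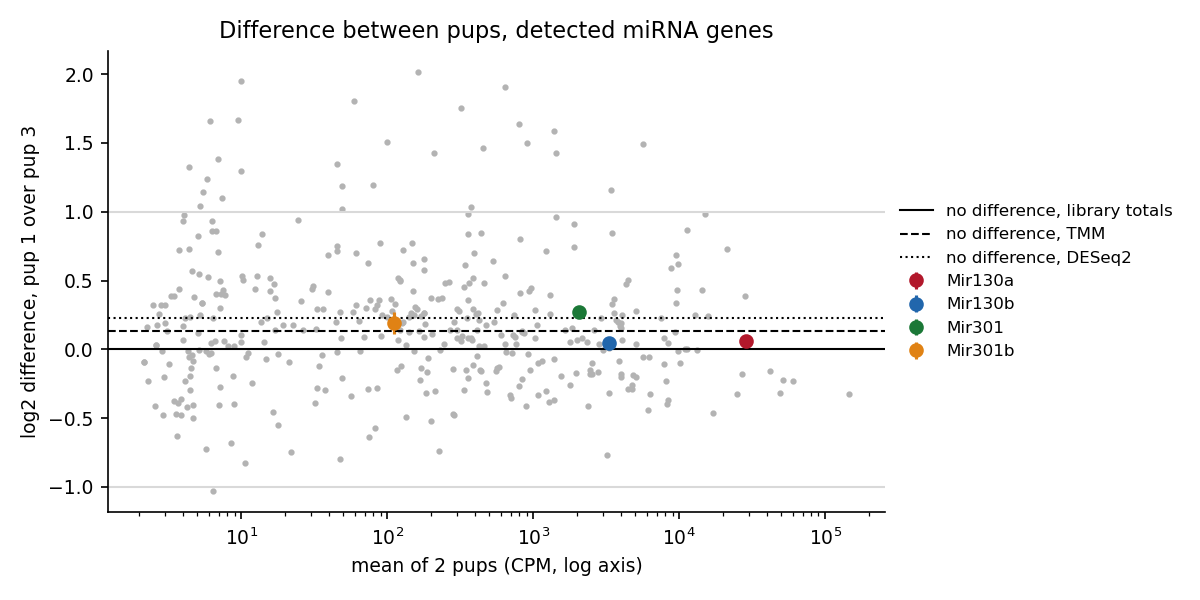
Log2 difference of level, pup 1 over pup 3, against mean level in CPM (log axis) for the 407 detected genes (grey) and the 4 members (colours, bars: counting SE), with horizontal lines where each scaling puts no difference and faint lines at 2-fold. Mir130a and Mir130b lie just above the line of the library totals and below both others, and Mir301 lies above all 3.

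The hairpins of Mir130b and Mir301b lie side by side on 1 strand, yet their counts were far apart. Mir130b had 28.2 times the counts of Mir301b in pup 1 (95% interval 25.9 to 30.7) and 31.2 times in pup 3 (28.8 to 33.8), a mean of 29.7 ± 2.13 (SD, n = 2). On the log2 scale the mean ratio was 4.89. Gaps in counts of this size occurred at other clusters too. Among 118 pairs of adjacent detected miRNA genes on the same strand within 10000 bases, the median absolute log2 ratio was 2.63, with quartiles of 1.07 and 5.13. In 31 pairs (26.3%) it was larger than for Mir130b and Mir301b. Some of these hold a gene with copies of the same mature sequence, which loses reads that match several places, such as Mir19b-1 beside Mir20a (8.63). The median and the 26.3% thus describe the counts, and pairs without such copies were not compared separately.

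**Figure D4:**
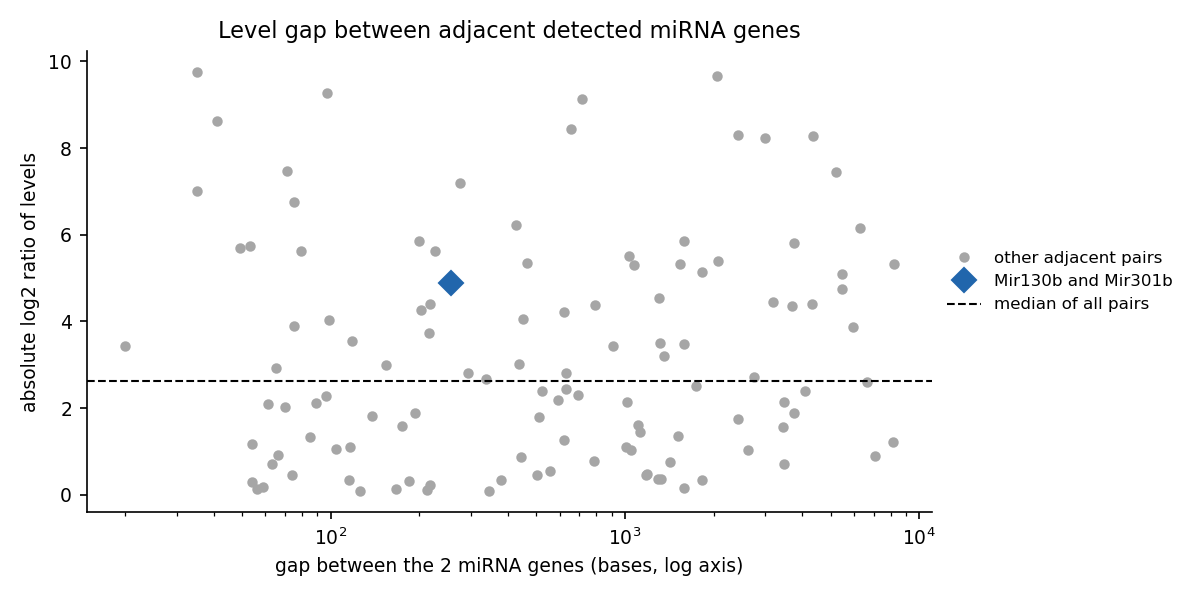
Absolute log2 ratio of levels (mean of 2 pups) against the gap in bases (log axis) for 118 pairs of adjacent detected miRNA genes on the same strand, with the Mir130b and Mir301b pair as a diamond and the median of all pairs as a dashed line. The diamond, at 4.89 and 257 bases, lies above the median of 2.63 and inside the spread of the other pairs.

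RefSeq lists 4 further mouse genes with a mature arm that carries the seed AGUGCAA, shown to set them beside the members.
miR-130c: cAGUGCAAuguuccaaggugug
miR-721: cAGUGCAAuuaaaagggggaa
miR-6341: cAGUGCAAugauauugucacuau
miR-6389: cAGUGCAAuguuaaacuuugc
Mir130c, Mir6341 and Mir6389 had 0 counts in both pups, and 3 counts of the total, the limit a count of 0 allows, are 0.611 CPM in pup 1 and 0.481 CPM in pup 3. Mir721 has no entry of its own and is not analysed here. Among genes with this seed that have an entry, all counts thus came from the 4 members.

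The seed overlaps those of 2 other families with a shift, and their lead sequences are shown for that reason with bases 2 to 8 in capitals.
miR-148a-3p: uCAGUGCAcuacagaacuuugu
miR-152-3p: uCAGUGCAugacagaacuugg
miR-19a-3p: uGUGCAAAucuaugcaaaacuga
The run CAGUGCA is at bases 2 to 8 of miR-148a-3p and miR-152-3p and at bases 1 to 7 of miR-130a-3p. The run GUGCAA is at bases 2 to 7 of miR-19a-3p and at bases 3 to 8 of miR-130a-3p. A seed moved by a base pairs with an overlapping but different set of target sites.

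Summed, these relatives were much lower than the family, most of whose counts came from Mir130a. Mir148a had 432 CPM (pup 1) and 537 CPM (pup 3), Mir148b had 327 CPM (pup 1) and 363 CPM (pup 3), and Mir152 had 66.4 CPM (pup 1) and 99.4 CPM (pup 3). The family had 42.3 times their summed level in pup 1 and 33.2 times in pup 3. Singly, Mir148a and Mir148b were above the member Mir301b, which had 118 CPM (pup 1) and 103 CPM (pup 3). Of the miR-19 genes, which lie in the miR-17 cluster and its X-linked paralog and are known for promoting proliferation, Mir19a had 33.4 CPM (pup 1) and 41.2 CPM (pup 3). Mir19b-1 had 12.2 CPM (pup 1) and 8.34 CPM (pup 3). Mir19b-2 had 26 counts in pup 1 and 4 in pup 3, and did not reach 2 CPM in both. Mir19b-1 and Mir19b-2 encode the same miR-19b-3p, so reads that match both genes are counted for neither, and their levels do not measure miR-19b.

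Summed over the genes that carry each seed, AGUGCAA was among the most abundant seeds shared by at least 2 genes with an entry, with or without counts. It ranked 7 of 185 such seeds in pup 1, with 34774 CPM, and 5 in pup 3, with 33033 CPM, leaving out Mir301b. Among all 1205 seeds, with those of a single gene included, it ranked 11 in pup 1 and 9 in pup 3. On the mean of the pups, 4 of the 185 shared seeds lay above it. They were the 5p seed of Mir99a, Mir99b and Mir100, the 3p seed of Mir99a and Mir99b, the let-7 seed and the 5p seed of Mir10a and Mir10b. Each gene counts under the seeds of both its arms here, and families with identical copies lose reads that match several places, so the ranks describe the tables and not the mature miRNAs.

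The genes nearest to the members in level were found by the distance of log2(CPM + 1) over the 2 pups, a likeness of level only. Nearest to Mir130a were Mir335, at 25357 CPM (pup 1) and 28679 CPM (pup 3), and Mir10a, at 32189 CPM (pup 1) and 24602 CPM (pup 3). Nearest to Mir130b were Mir107, at 3296 CPM (pup 1) and 3276 CPM (pup 3), and Mir296, at 2997 CPM (pup 1) and 3010 CPM (pup 3). Nearest to Mir301 were Mir18, at 2028 CPM (pup 1) and 1940 CPM (pup 3), and Mir195a, at 2206 CPM (pup 1) and 2090 CPM (pup 3). Nearest to Mir301b were Mir494, at 119 CPM (pup 1) and 97.8 CPM (pup 3), and Mir194-2, at 125 CPM (pup 1) and 99.1 CPM (pup 3). The range of Mir130b over the pups overlapped those of 9 other genes, that of Mir301 those of 12 and that of Mir301b those of 20, so places next to each other in the order are not separate levels.

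The libraries held 4906127 own-strand gene counts for pup 1 and 6238680 for pup 3. Of 10 counted genes known from brain neurons and neural progenitors, 7 were detected, with a summed level of 22397 CPM in pup 1 and 20787 in pup 3. Mir9-2, Mir124a-2 and Mir124a-3 were the 3 below detection in at least 1 pup. They have copies with the same mature sequence, but so do genes of the list that were detected. Among these are Mir9-3 (538 CPM in pup 1, 386 in pup 3) and Mir124a-1 (14.9 and 4.01 CPM). Why the 3 were low was not tested. The Hox-linked list of hindbrain and spinal cord had 5 of 6 detected, at 52557 CPM in pup 1 and 34978 in pup 3. All 3 vessel genes (55322 CPM in pup 1, 65476 in pup 3) and all 4 counted blood genes (1177 and 782 CPM) were detected, as were the liver gene Mir122 (44.6 and 45.2 CPM) and 1 of 2 muscle genes. In whole tissue, more cells that hold a member and more of it per cell cannot be told apart, and the part of any of these cell types in the members' levels was not tested.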

How the data were processed

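Small RNA of single hindbrains from 2 newborn pups was sequenced. The authors deposited 1 table per library of raw read counts per miRNA gene, for any strand, the gene's own strand and the opposite strand, not normalized and not pooled. Text deposited with each table names the assembly mm10 and the annotation M4. Aligner and counter: not given in the sources used here. Own-strand counts were used. Rows that name no gene stayed out of library totals. They held 17.7% unmapped reads, 37.9% at several places and 2.66% in no feature of 12126529 reads in pup 1, and 13.9%, 39.4% and 1.59% of 14316243 in pup 3.

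Gene IDs were matched without version to GENCODE M21 (1894 of 1973). Sequences come from RefSeq, GRCm38.p6, by symbol, with hairpins for all 4 members and 7 mature arms. Levels are CPM on library totals. No test was made, since both libraries form 1 group. Scaling alternatives used edgeR 4.0.16 (TMM) and DESeq2 1.42.0 in R 4.3.3, with Python 3.11.15 and scipy 1.17.1 otherwise. The 2 count tables differ beyond sampling noise, with a chi-square per gene of 391 over 508 genes, so they are not copies of 1 library, which does not separate 2 animals from 2 preparations. They were taken as 2 samples because the labels name 2 pups. The labels do not say whether the shared donor identifier marks a litter, so the spread between them may be technical. The members, lists and the rule for named genes (the members, their seed relatives, the 2 genes nearest in level to each, hosts, neighbours and markers) were chosen with earlier results of these data known.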

Additional observations from a re-analysis of the deposited data

Results flagged for a closer look

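Reads on the strand opposite to Mir130a were above the limit that a count of 0 allows (3 counts) in pup 3, with 5 counts, and below it in pup 1, with 1 count. They were 0.00287% of its own-strand counts in pup 3 and 0.000698% in pup 1. Over all genes, opposite-strand counts were 3.51% of own-strand counts in pup 3 and 3.11% in pup 1, so the share at Mir130a was far below that of the libraries. Mir130b, Mir301 and Mir301b had 0 opposite-strand counts in both pups.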

How the results depend on the processing

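Of 62 alternative values of 14 results, 43 stayed within the limit set for their kind: 1 SD between pups for a level, share or ratio, the 95% counting interval for a log2 difference between pups, and 1.5 times for a count of genes. With 2 pups, leaving out either one always keeps a member's level, share or ratio within 1 SD of the mean. Those alternatives could not fail, and the members were proposed with their levels known, so the 43 does not measure robustness. With all reads of the tables as denominator, the family share was 1.43%, and without the most abundant gene in the denominator it was 3.98%. Differences between the pups changed sign for Mir130a, to -0.072 with TMM, -0.075 with TMM without a filter on low counts and -0.17 with DESeq2 size factors, for Mir130b, to -0.088, -0.092 and -0.18, and for Mir301b, to -0.037 with DESeq2. Mir301 stood at 0.14, 0.13 and 0.041 under the same 3 scalings. These shifts follow from the scaling factors themselves. The median ratio of adjacent genes was 2.16 (log2) at a detection level of 10 CPM, where 98 pairs were left. All 4 members were detected at every level tried, up to 100 CPM. Mir301b passed 100 CPM only narrowly in pup 3, at 103 CPM with a 95% interval of 95.6 to 112. The share of all genes was 20.6% at 2 CPM and was not computed at the other levels tried. Nothing is read from this count, as the members were proposed with their levels known. No paired analysis was possible because the series holds 1 group. Depth limits Mir301b most, with 580 counts in pup 1 and 645 in pup 3.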
